A study of Mus musculus with 42 samples.

Results

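Bone marrow-derived macrophages of wild-type (WT) mice were given the synthetic glucocorticoid dexamethasone (Dex) at 1 µM for 2 h, and their transcripts were set against those of cells given vehicle for 2 h. These are 6 of the 42 RNA-seq libraries of the study, 3 with Dex and 3 with vehicle, chosen by their titles, and 11160 genes were measured in each. Macrophages of both genotypes, WT and MS4A4A knockout (KO), were grown from bone marrow for 6 days with 50 ng/ml M-CSF, the growth factor that drives macrophage differentiation. After detachment and replating they were used on the following day, untreated or after 2, 8 or 24 h of Dex or vehicle, in 14 groups of 3 libraries. All 6 libraries compared here are therefore WT cells under the same culture, and only the steroid differs. Strain, age and sex of the mice are not in the labels. Nor is it stated whether replicates were separate animals or cultures, and the p-values therefore reflect a spread between libraries that may be technical.

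Glucocorticoids enter the cell and bind the glucocorticoid receptor (gene Nr3c1), which is held in the cytosol by heat shock proteins and moves to the nucleus once it has hormone. There it binds DNA at glucocorticoid response elements and raises genes nearby, and it also represses genes driven by NF-κB and AP-1, the transcription factors of inflammation. In macrophages the hormone is known for lowering cytokines and chemokines, for inducing inhibitors of kinase and cytokine signalling, and, over longer times, for a state with scavenger receptors such as CD163. No label or file separates genes that the receptor acts on directly from those that follow.

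Each library held 22399842 to 33528397 estimated counts, and 11148 to 11156 of the genes had 1 count or more. Mitochondrial transcripts took 0.6753 to 0.8309% of the counts. Correlations of log2 levels lay between 0.9901 and 0.9935 within the Dex group and between 0.9851 and 0.9934 within the vehicle group, and between 0.9719 and 0.9871 across the groups. Vehicle replicate 1 stood somewhat apart from the other 2 vehicle libraries, with the highest Ccl2, Ccl7 and Il1b of the group. Levels are given as CPM, counts scaled for library size with TMM factors, and a gene was called where its adjusted p in the edgeR quasi-likelihood test was under 0.05.

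Dex changed 1007 of 11160 genes within 2 h (9.02%), 653 upward (5.85%) and 354 downward (3.17%). Rises were both more frequent and larger than falls. The median called rise was 1.56-fold, and 181 genes (1.62%) rose by over 2-fold, 54 of them over 4-fold and 19 over 8-fold. The median called fall was 1.4-fold, and 55 genes (0.493%) fell by over 2-fold, 8 of them over 4-fold and 1 over 8-fold. The 3 Dex libraries did not overlap the 3 vehicle libraries at 645 of the 653 genes called up and 347 of the 354 called down. Over all 11160 genes the groups did not overlap at 2705 (24.2%), with Dex higher at 1522 and lower at 1183. Without vehicle replicate 1, in a fit with fewer libraries, 752 genes were called, 496 upward and 256 downward. These are levels in bulk RNA, so a change per cell and a change in the share of cells that express a gene cannot be told apart.

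Calls were spread over the whole range of abundance. Among the 3720 least abundant genes, with mean levels of 0.0156 to 14.4 CPM, 4.11% rose and 2.23% fell. Among the 3720 genes between 14.4 and 50 CPM, 5.51% rose and 3.49% fell, and among the 3720 above them 7.93% rose and 3.79% fell. Log2 fold changes had a median SE of 0.187 in the least and of 0.0893 in the most abundant class. Changes over 2-fold gathered in the least abundant class, with 88 of the 181 rises and 31 of the 55 falls.

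**Figure D1:**
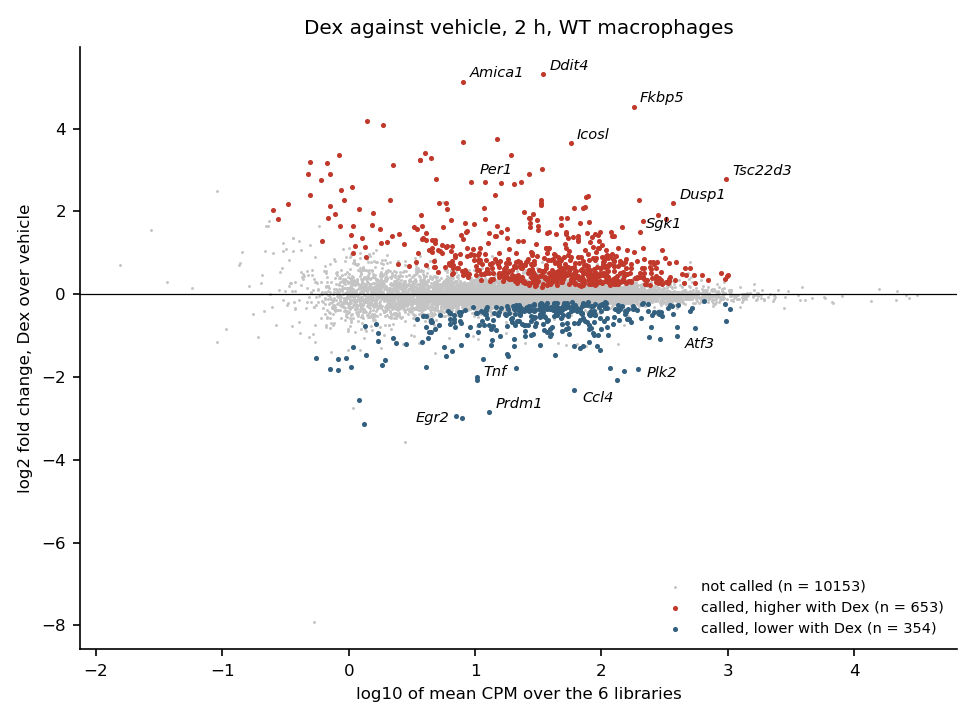
Each point is a gene, with the log10 of its mean CPM over the 6 libraries on the x axis and its log2 fold change, Dex over vehicle, on the y axis; red and blue points are the 653 genes called higher and the 354 called lower with Dex. The highest values drawn belong to Ddit4, Amica1 and Fkbp5, and Tsc22d3 combines a high level with a large rise; 2 genes at 0 in all 3 vehicle libraries were not drawn.

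The largest rises among the genes named by rule belonged to Ddit4 and Amica1, which were nearly silent without the steroid. Ddit4, which encodes REDD1, an inhibitor of the growth kinase complex mTORC1, stood at 72.9, 69.8 and 60.1 CPM in the Dex libraries, against 1.85, 2.02 and 1.12 CPM in the vehicle libraries. Its log2 fold change was 5.31 ± 0.36 (adjusted p = 2.12e-13 by edgeR quasi-likelihood, adjusted after Benjamini-Hochberg). Values after ± on log2 fold changes are SEs derived from the F statistic of that test. Ddit4 had the highest log2 fold change of the genes that met the naming rule, which asks for at least 5 CPM in a group. Amica1, which encodes the leukocyte adhesion molecule JAML, had 18.3, 15.9 and 12.6 CPM with Dex and 0.418, 0.490 and 0.402 CPM with vehicle (log2 5.13 ± 0.44). Both genes were under 3 CPM in every vehicle library and over 12 CPM in every Dex library. In the GENCODE M21 annotation of GRCm38, Ddit4 spans chromosome 10 from 59949669 to 59951834 (minus strand) and Amica1 chromosome 9 from 45079183 to 45108534 (plus strand).

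Fkbp5 joined a large fold with a high level. It encodes a co-chaperone that binds the receptor through Hsp90 and lowers its affinity for hormone, and it is a classical readout of glucocorticoid exposure. Its level was 375, 343 and 317 CPM with Dex, against 13.7, 17.9 and 12.9 CPM with vehicle, a log2 fold change of 4.53 ± 0.33 (adjusted p = 1.15e-12 in edgeR). Tsc22d3, which encodes GILZ, a leucine zipper protein that binds NF-κB and AP-1, reached 1817, 1669 and 1577 CPM with Dex, against 255, 245 and 237 CPM with vehicle (log2 2.78 ± 0.20). It was the most abundant of the 15 genes with the largest rises among those named by rule. Its Dex and vehicle libraries did not overlap, which that rule required. Fkbp5 spans chromosome 17 from 28399094 to 28517527 (minus strand) and Tsc22d3 chromosome X from 140539528 to 140600659 (minus strand).

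The other leading rises span signal receptors, ligands and enzymes. Icosl, the ligand of the T cell costimulator ICOS, had 128, 97.7 and 92.3 CPM with Dex and 7.39, 9.61 and 8.13 CPM with vehicle (log2 3.66 ± 0.13), and it had the lowest adjusted p of all genes named here (1.05e-20 in edgeR). Il15ra, the receptor chain that presents interleukin-15 to other cells, stood at 33.6, 37.2 and 35.0 CPM with Dex, against 3.10, 4.07 and 3.04 CPM with vehicle (log2 3.36 ± 0.14). Tagap, a GTPase-activating protein first described in activated T cells, had 57.1, 61.2 and 61.6 CPM with Dex and 6.83, 8.21 and 7.10 CPM with vehicle (log2 3.02 ± 0.14). In each of these genes the spread among the 3 libraries of a group was small beside the distance between the groups. The rule that named them required a call and no overlap.

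Lower in abundance, and also without overlap as the naming rule required, were Socs2, Zbtb16, Fzd4, Sphk1, Arl4d, Strip2 and Prss16. Socs2, a feedback inhibitor of JAK-STAT signalling, rose by 3.75 ± 0.29 on the log2 scale, to 27.5 ± 9.13 CPM (mean ± SD, n = 3), against 2.03 ± 0.779 CPM. Zbtb16, the zinc finger repressor PLZF, rose by 3.68 ± 0.23, to 17.6, 13.4 and 13.8 CPM with Dex, against 1.19, 1.32 and 0.938 CPM with vehicle. Fzd4 is a receptor for Wnt ligands and Sphk1 makes sphingosine 1-phosphate. They rose by 3.41 ± 0.25 and 3.30 ± 0.38 and averaged 7.28 ± 0.553 and 8.10 ± 2.46 CPM with Dex, against 0.678 ± 0.230 and 0.821 ± 0.0768 CPM with vehicle. The small GTPase gene Arl4d (log2 3.25 ± 0.30), Strip2 of the STRIPAK kinase and phosphatase complexes (3.23 ± 0.34) and the thymus-specific serine protease gene Prss16 (2.79 ± 0.29) stayed under 2 CPM in every vehicle library and over 5 CPM in every Dex library. Abhd15, an abhydrolase gene, rose by 2.91 ± 0.21, but it overlaps Trp53i13 and Taok1 on the opposite strand, and the sources used here do not say if counting was strand-specific.

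**Figure D2:**
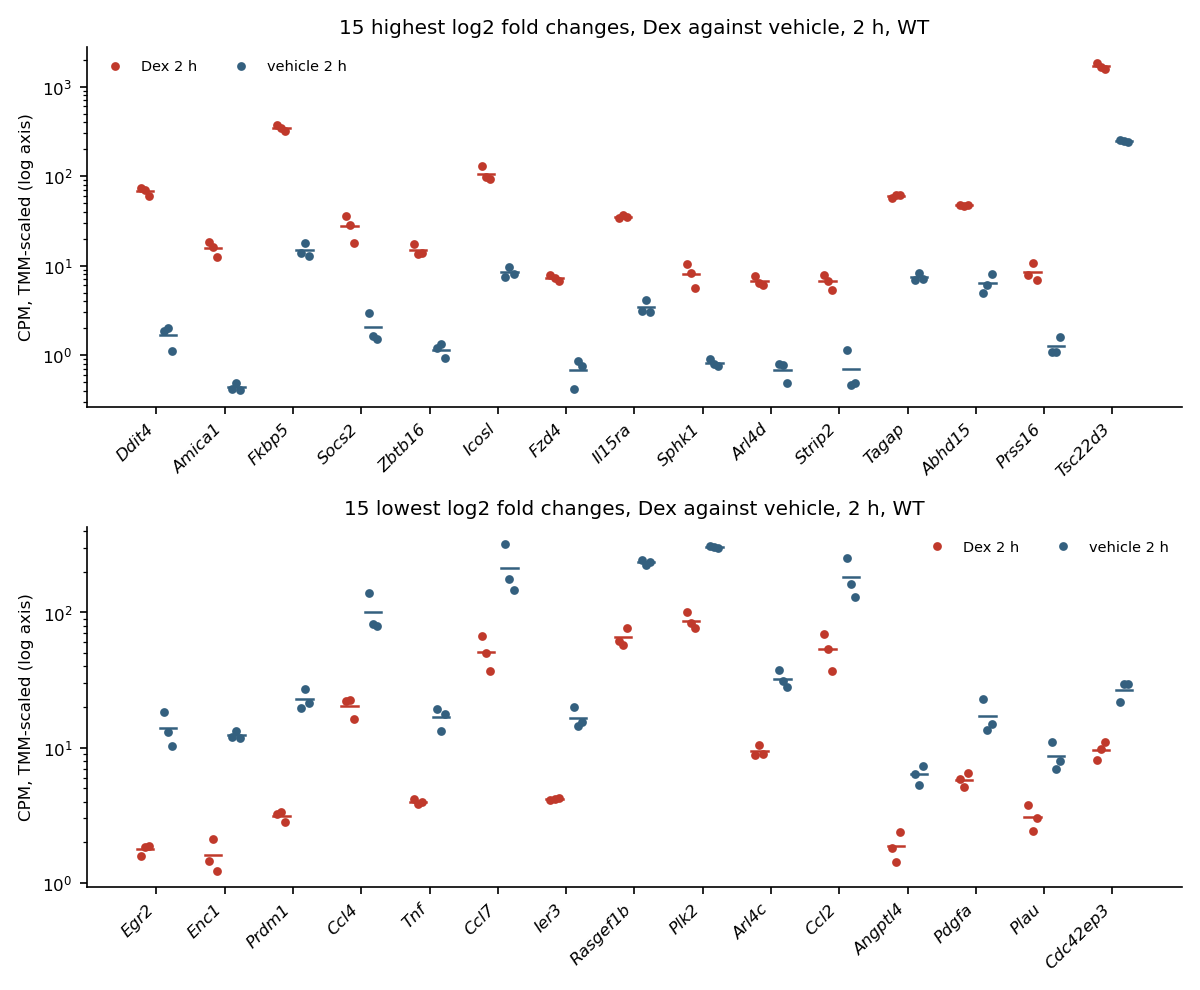
Each dot is the level of a gene in a library, in CPM on a log axis, and the bars are means of 3 libraries, for the 15 highest (top) and 15 lowest (bottom) log2 fold changes among the genes named by rule, Dex to the left of vehicle. No Dex library overlaps a vehicle library in these 30 genes, as the rule required, and vehicle replicate 1, the leftmost blue dot, is the highest of the vehicle libraries for Ccl4, Ccl7 and Ccl2.

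Many genes listed as glucocorticoid receptor targets rose. Of the 38 measured members of the list, 22 rose, 3 fell and 13 were not called. Of all genes 5.85% rose and 3.17% fell. The list was written with earlier results of these data known. The list's median log2 fold change was 0.79, beside -0.009 over all genes. The summed level of the list was 7627 to 8947 CPM in the Dex libraries and 4799 to 5998 CPM in the vehicle libraries. Besides Ddit4, Fkbp5, Zbtb16 and Tsc22d3, the clock repressor gene Per1 rose to 41.2, 35.6 and 43.6 CPM with Dex, against 6.00, 5.63 and 6.92 CPM with vehicle (log2 2.70 ± 0.18; adjusted p = 1.05e-13 in edgeR). Klf9, a Krüppel-like repressor, had 59.3, 49.1 and 53.9 CPM with Dex and 11.5, 12.1 and 12.9 CPM with vehicle (log2 2.16 ± 0.18). The groups were far apart at both genes.

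Sgk1, a kinase gene named for serum and glucocorticoids, was already well expressed with vehicle and rose less. Its level was 289, 319 and 281 CPM with Dex, against 108, 114 and 90.8 CPM with vehicle (log2 1.51 ± 0.25). Glul, which encodes glutamine synthetase, rose by 1.38 ± 0.12, and Mt2, a metal-binding metallothionein gene, by 1.35 ± 0.28. The 3 members that fell were Angptl4, an inhibitor of lipoprotein lipase (-1.76 ± 0.26), Rgs2, which dampens G protein signalling (-0.79 ± 0.13), and Bcl6, a transcriptional repressor (-0.63 ± 0.17), which was not called without vehicle replicate 1 or without Dex replicate 3. Angptl4 stood at 1.81, 1.42 and 2.38 CPM with Dex, against 6.38, 5.30 and 7.37 CPM with vehicle, so a gene known in fat and liver cells as a target that rises was lower with Dex in all 3 libraries here.

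The receptor itself and most of its partners did not pass the test. Nr3c1 stood at 83.1, 79.2 and 89.6 CPM with Dex and 91.6, 103 and 104 CPM with vehicle. The groups did not overlap, as at 24.2% of all genes. The log2 fold change of -0.25 ± 0.08 missed the threshold (adjusted p = 0.0608 in edgeR). It passed with DESeq2 (adjusted p = 0.0397), among genes with a mean of at least 5 CPM (0.0467, edgeR quasi-likelihood), without vehicle replicate 1 (0.0357) and without Dex replicate 3 (0.0342). Of 24 measured genes for the receptor, its chaperones and cofactors, 2 rose and 0 fell, with a median of 0.045. That is 8.33% called, close to the 9.02% of all genes. They were Fkbp5 and Ncoa1, a steroid receptor coactivator, whose rise of 0.51 ± 0.13 was not called without vehicle replicate 1.

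Sequence shortly before the start sites rarely held a complete response element. RefSeq promoter entries of GRCm38.p6, from 250 bases before to 50 after a start, were matched to 9003 of the 11160 genes (80.7%). The palindrome searched was GNACA and TGTNC with 3 bases between them, on both strands. It was found at 2 of 152 genes that rose over 2-fold (1.32%), at 0 of 43 that fell over 2-fold, and at 24 of all 9003 genes (0.267%). The 2 genes were Sgk1 and Map3k6, a gene for a kinase of the MAP kinase cascade. The 250 bases before their starts, both on the plus strand, are shown because they hold the receptor's recognition sequence, which is in capitals:
Sgk1, chr10:21993640-21993889: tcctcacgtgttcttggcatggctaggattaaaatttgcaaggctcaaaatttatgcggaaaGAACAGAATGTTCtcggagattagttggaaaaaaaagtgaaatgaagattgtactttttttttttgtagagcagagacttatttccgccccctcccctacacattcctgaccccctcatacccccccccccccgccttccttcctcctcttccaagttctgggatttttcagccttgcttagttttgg
Map3k6, chr4:133240568-133240817: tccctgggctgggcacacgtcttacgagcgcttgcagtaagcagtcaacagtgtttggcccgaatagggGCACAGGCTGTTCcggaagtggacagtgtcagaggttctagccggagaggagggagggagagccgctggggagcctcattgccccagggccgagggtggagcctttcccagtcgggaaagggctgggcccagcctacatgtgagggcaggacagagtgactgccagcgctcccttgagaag
The centre of the element lies 182 bases before the start of the RefSeq entry in Sgk1 and 175 bases before it in Map3k6. In Sgk1 this window lies inside the gene's span in GENCODE M21, chromosome 10 from 21882184 to 21999903 (plus strand), and so not before its first annotated base. Map3k6, chosen after its values were seen, stood at 33.9, 23.8 and 25.8 CPM with Dex, against 4.43, 4.32 and 4.15 CPM with vehicle (log2 2.69 ± 0.19).

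Other motifs were as common or more common in these windows. The single arm AGAACA stood in 17.1% of the promoters of genes that rose over 2-fold, in 4.65% of those that fell over 2-fold and in 14.8% of all. The AP-1 site TGANTCA stood in 13.8, 6.98 and 6.21%, the cAMP response element TGACGTCA in 3.29, 4.65 and 3.73%, the NF-κB site GGANTTTCC in 1.32, 2.33 and 1.56% and the E-box CACGTG in 13.8, 9.3 and 12.1%. No count rests on more than 26 of the 152 rising or 4 of the 43 falling promoters, and no window reaches the distant enhancers where the receptor is known to bind most often.

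An inhibitor of inflammatory kinases, one of NF-κB and an enzyme that cuts cytokine mRNA were among the rises. Dusp1, the phosphatase that switches off p38 and JNK, reached 698, 573 and 549.9 CPM with Dex, against 165, 116 and 118 CPM with vehicle (log2 2.19 ± 0.22; adjusted p = 1.78e-09 in edgeR). Nfkbia, which encodes IκBα and holds NF-κB in the cytosol, had 207, 185 and 157 CPM with Dex and 94.6, 52.2 and 59.6 CPM with vehicle (log2 1.41 ± 0.18). Zc3h12a, which encodes the cytokine mRNA endonuclease Regnase-1, stood at 41.3, 47.4 and 47.9 CPM with Dex, against 12.4, 13.1 and 10.1 CPM with vehicle (log2 1.94 ± 0.14). The groups did not overlap at any of the 3 genes, as at 24.2% of all genes. Dusp1 is annotated on chromosome 17 with a span that overlaps Ergic1 on the opposite strand.

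Their families did not move as one. Of 24 MAP kinase phosphatases and feedback genes, 4 rose and 4 fell, with a median of -0.1 (33.3% called, where 9.02% of all genes were). Without Dex replicate 1 or vehicle replicate 3, 2 rose. Dusp5 and Dusp7, phosphatases for ERK, fell by 1.23 ± 0.25 and 0.67 ± 0.11 on the log2 scale, as did Dusp4 (-1.09 ± 0.23), while Dusp6, another phosphatase for ERK, rose by 1.05 ± 0.21, a call that was lost with the 6 libraries fitted alone (adjusted p = 0.0527, edgeR quasi-likelihood). Of 20 mRNA decay factors, 4 rose and 2 fell (30% called). Zc3h12c rose by 1.29 ± 0.12, and the AU-rich element binding proteins Zfp36l2 and Zfp36l1 by 0.78 ± 0.10 and 0.90 ± 0.17, whereas Zc3h12d fell by 0.89 ± 0.11 and Btg1, an activator of deadenylation, by 0.57 ± 0.14. Without vehicle replicate 1 Btg1 was not called.

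The NF-κB, TNF and Toll-like receptor list was split evenly, with 9 of 49 members up, 9 down and a median of -0.015. Of its members 36.7% were called, where 9.02% of all genes were. Without vehicle replicate 1, 3 were down. Among the risers were Nfkbia, Birc3, an inhibitor of apoptosis (0.94 ± 0.12), and 3 sensors of microbes, namely Tlr5 for flagellin (2.05 ± 0.31), Tlr7 for RNA (0.86 ± 0.12) and Tlr8 (0.74 ± 0.14). Tlr7 had 282, 260.1 and 305 CPM with Dex and 141, 158 and 167 CPM with vehicle. Among the fallers were Bcl3, a nuclear IκB protein (-1.09 ± 0.12), and Cd83, a surface marker of activated antigen-presenting cells, which had 47.0, 44.3 and 36.0 CPM with Dex, against 122, 87.4 and 95.5 CPM with vehicle (-1.26 ± 0.16). Tlr4, the receptor for lipopolysaccharide, was not called (-0.19 ± 0.11).

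A minority of the growth signalling genes rose. Of 31 measured mTORC1 brakes and insulin signalling genes, 5 rose (16.1%) and 0 fell, with a median of 0.177. Of all genes 5.85% rose and 3.17% fell. Besides Ddit4 they were Pik3ip1, an inhibitor of PI3-kinase at 49.4, 53.6 and 61.6 CPM with Dex, against 10.1, 12.3 and 13.5 CPM with vehicle (2.20 ± 0.12), Pik3r1, the regulatory subunit of PI3-kinase (1.41 ± 0.15), the sestrin gene Sesn1 (0.72 ± 0.09), and Rptor, which encodes the mTORC1 subunit Raptor (0.67 ± 0.14). Ddit4, Pik3ip1 and Sesn1 are known as inhibitors, while Raptor is a working part of mTORC1.

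Cytokine and chemokine transcripts went down without exception among those called. Of 28 measured members, 9 fell (32.1%) and 0 rose, and the median was -0.182. Of all genes 3.17% fell and 5.85% rose. Ccl4, a chemokine for T cells and monocytes, stood at 22.2, 22.4 and 16.2 CPM with Dex, against 138, 82.8 and 80.1 CPM with vehicle (log2 -2.31 ± 0.26; adjusted p = 3.73e-08 in edgeR). Tnf, the cytokine tumour necrosis factor, had 4.16, 3.87 and 3.95 CPM with Dex and 19.4, 13.2 and 17.6 CPM with vehicle (log2 -2.06 ± 0.19). The lowest vehicle library of Tnf was more than 3 times the highest Dex library.

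Ccl3, next to Ccl4 on chromosome 11, fell by 1.47 ± 0.20 on the log2 scale. The monocyte chemoattractant Ccl2 had 69.7, 53.3 and 36.9 CPM with Dex, against 252, 163 and 131 CPM with vehicle (log2 -1.77 ± 0.43; adjusted p = 0.00466 in edgeR), and the related Ccl7 fell by 2.06 ± 0.50. Vehicle replicate 1 was the highest vehicle library for both, and without it Ccl7 was not called (adjusted p = 0.0501, edgeR quasi-likelihood). Il1b, the inflammatory cytokine interleukin-1β, was scarce, at 0.238, 0.364 and 0.192 CPM with Dex and 4.11, 1.32 and 1.70 CPM with vehicle (log2 -3.14 ± 0.64, and -2.47 without vehicle replicate 1). Il15 fell by 0.74 ± 0.11 while its presenting receptor chain rose. Il10, an anti-inflammatory cytokine, was at 1.96, 1.85 and 1.04 CPM with Dex and 2.79, 1.90 and 1.83 CPM with vehicle and was not called (-0.42 ± 0.30).

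No inflammatory stimulus is named in the labels, and the cytokine levels are those of cells in culture medium after replating. Untreated WT cells, taken before any vehicle, averaged 10.6 ± 1.38 CPM of Tnf, 235 ± 27.9 CPM of Ccl4 and 11.4 ± 5.09 CPM of Egr2 (mean ± SD, n = 3). With Dex the averages were 3.99 ± 0.153, 20.3 ± 3.54 and 1.77 ± 0.167 CPM, and with vehicle 16.8 ± 3.21, 100.3 ± 32.8 and 13.9 ± 4.16 CPM. No test was made against the untreated cells.

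Immediate early genes, which respond first to growth factors and stress, moved both ways. Of 30 measured, 6 rose and 8 fell, with a median of -0.144 (46.7% called, where 9.02% of all genes were). Egr2, a zinc finger activator, had the lowest log2 fold change of the genes named by rule with at least 5 CPM, -2.98 ± 0.32, with 1.58, 1.85 and 1.88 CPM with Dex, against 18.4, 13.0 and 10.3 CPM with vehicle (adjusted p = 1.33e-08 in edgeR). Atf3, a stress-induced repressor, was far more abundant and fell to 242, 258 and 283 CPM, against 540.1, 502 and 532 CPM with vehicle (-1.01 ± 0.09). Plk2, a polo-like kinase, had 101, 83.7 and 76.8 CPM with Dex and 311, 303 and 299.8 CPM with vehicle (-1.80 ± 0.15). The groups did not overlap at these genes, which the naming rule required for Egr2 and Plk2. Of all genes 24.2% had no overlap.

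Ier3, a regulator of cell survival, and Ier5 fell by 1.99 ± 0.16 and 1.25 ± 0.10, and Junb, an AP-1 subunit, by 0.83 ± 0.12. In the other direction Fos, the AP-1 partner of Jun proteins, rose by 0.79 ± 0.17, to 309, 217 and 202 CPM with Dex, against 173, 114 and 133 CPM with vehicle, and Klf4, a Krüppel-like factor of monocyte differentiation, by 2.00 ± 0.23. Fos and Junb, both parts of AP-1, thus moved in opposite directions.

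Other large falls concerned the cytoskeleton, small GTPases and growth factors. Enc1, an actin-binding Kelch protein, stood at 1.46, 2.12 and 1.23 CPM with Dex, against 12.0, 13.3 and 11.8 CPM with vehicle (log2 -2.95 ± 0.32). Rasgef1b, an exchange factor for Ras, had 61.1, 57.6 and 77.4 CPM with Dex and 244, 223 and 238 CPM with vehicle (log2 -1.85 ± 0.10; adjusted p = 5.7e-16 in edgeR), the steadiest of the 15 lowest by its SE. The small GTPase gene Arl4c, whose relative Arl4d rose, fell by 1.78 ± 0.19, the Cdc42 effector gene Cdc42ep3 by 1.49 ± 0.14, and Pdgfa, a platelet-derived growth factor chain, by 1.56 ± 0.18, to 5.81 ± 0.679 CPM with Dex, against 17.2 ± 5.03 CPM with vehicle. All 5 genes separated the groups, as the rule that named them required.

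Krüppel-like and zinc finger factors were called in both directions. Prdm1, which encodes Blimp-1, stood at 3.21, 3.37 and 2.84 CPM with Dex, against 19.8, 27.1 and 21.4 CPM with vehicle (log2 -2.85 ± 0.20; adjusted p = 5.42e-13 in edgeR). Of 20 Krüppel-like and zinc finger factors, 7 rose and 4 fell (55% called, where 9.02% of all genes were). The risers included Zbtb16, Klf9, Klf4 and Klf2, a factor known to restrain macrophage activation (1.63 ± 0.18; 41.3 ± 4.85 CPM with Dex, against 13.3 ± 2.88 CPM with vehicle). The fallers were Prdm1, Bcl6, Klf10 (-0.55 ± 0.10) and Zeb2, a factor of macrophage identity (-0.79 ± 0.11). The list's median was -0.076.

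Circadian clock genes were called in both directions. Of 20 measured, 4 rose and 2 fell, with a median of 0.04 (30% called, where 9.02% of all genes were). With Per1 rose the repressor genes Nfil3 (1.83 ± 0.16), Ciart (1.80 ± 0.25) and Per2 (1.30 ± 0.27). Nfil3 had 47.4, 43.3 and 36.9 CPM with Dex and 13.9, 11.1 and 10.8 CPM with vehicle. Bhlhe40 and Bhlhe41, repressors of the same loop also known as DEC1 and DEC2, fell by 0.94 ± 0.25 and 0.92 ± 0.16, and Bhlhe40 was not called without Dex replicate 1. All 6 encode negative regulators of the clock loop or of its output genes.

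Macrophage lineage factors fell more often than they rose, by small amounts. Of 26 C/EBP, Maf and lineage factors, 3 rose and 7 fell (38.5% called), with a median of -0.094. Of all genes 5.85% rose and 3.17% fell. The 7 falls became 3 without vehicle replicate 1, and 4 without Dex replicate 1 or without vehicle replicate 3. Runx3, Cebpb and Maf rose by 0.94 ± 0.21, 0.78 ± 0.19 and 0.73 ± 0.17. Irf8, a factor required for monocyte development, fell to 156, 151 and 162 CPM with Dex, against 213, 198 and 192 CPM with vehicle (-0.37 ± 0.07), and Tfeb, a regulator of lysosome genes, by 0.37 ± 0.07.

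Receptors for cytokines and chemoattractants changed selectively. Of 34 cytokine receptor chains, 7 rose and 3 fell (29.4% called, where 9.02% of all genes were). Lifr, the receptor for leukaemia inhibitory factor, had 27.3, 20.0 and 20.6 CPM with Dex and 6.49, 8.14 and 6.92 CPM with vehicle (1.65 ± 0.20). Il6ra, the interleukin-6 receptor, rose by 0.97 ± 0.17, and Tnfrsf11a, the RANK receptor, by 0.64 ± 0.10. Ifngr2, a chain of the interferon-γ receptor, fell to 127, 130.4 and 123 CPM with Dex, against 201, 189 and 183 CPM with vehicle (-0.59 ± 0.07).

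Among 22 chemokine and chemoattractant receptors, 1 rose and 4 fell (22.7% called, where 9.02% of all genes were). The riser was Gpr183, an oxysterol receptor (0.76 ± 0.14). S1pr1, a receptor for sphingosine 1-phosphate, stood at 48.2, 45.3 and 53.8 CPM with Dex, against 109.8, 110.2 and 108 CPM with vehicle (-1.15 ± 0.18), and S1pr2 fell by 0.72 ± 0.10, while Sphk1, which makes their ligand, rose.

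Growth factor and adhesion genes gave further single changes. Of 20 TGF-β signalling genes 3 rose and 1 fell (20% called, where 9.02% of all genes were). The risers were the ligand gene Tgfb3 (2.71 ± 0.38), the receptor gene Tgfbr1 (0.87 ± 0.17) and the ubiquitin ligase gene Smurf2 (0.71 ± 0.12). Tgfb3 is overlapped by Ttll5 on the opposite strand. The corepressor gene Tgif1 fell (-0.97 ± 0.09), and without vehicle replicate 2, 2 genes of the list fell. Itga5, the fibronectin receptor subunit, had 439.5, 377 and 415 CPM with Dex and 189, 211 and 188 CPM with vehicle (1.07 ± 0.09). Cd44, the hyaluronan receptor, fell by 0.39 ± 0.07. Plau, which encodes urokinase, fell by 1.50 ± 0.30 while its receptor gene Plaur rose by 0.88 ± 0.18. Havcr2, which encodes the inhibitory receptor TIM-3, stood at 113, 128 and 121 CPM with Dex, against 48.1, 65.9 and 64.5 CPM with vehicle (1.02 ± 0.14).

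Genes of the surface phenotype that glucocorticoids are known to give macrophages were called in both directions at 2 h, and most were not called. Of 32 measured genes of that phenotype, 4 rose and 3 fell (1 without vehicle replicate 1), with a median of 0.003. That is 21.9% called, where 9.02% of all genes were, and 16 of the 32 lay above 0. The risers Cd163 and Mertk are also members of the list of glucocorticoid receptor targets. Cd163, the haptoglobin-haemoglobin scavenger receptor, was at 5.59, 4.23 and 5.14 CPM with Dex and 1.81, 1.47 and 1.56 CPM with vehicle (1.63 ± 0.32). Mertk, a receptor for apoptotic cells, had 150.1, 140.2 and 149 CPM with Dex and 72.4, 100.0 and 92.4 CPM with vehicle (0.73 ± 0.13). The mannose receptor gene Mrc1 (0.37 ± 0.14) and Anxa1, which encodes annexin A1 (-0.12 ± 0.14), were not called, and their groups overlapped; without Dex replicate 2 Mrc1 passed (adjusted p = 0.0481, edgeR quasi-likelihood). Slc40a1, the iron exporter ferroportin, fell to 752, 686 and 837 CPM with Dex, against 1216, 1091 and 1242 CPM with vehicle (-0.64 ± 0.13).

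Metabolic lists differed in their share of calls. In fuel metabolism 21.6% of the members were called, among eicosanoid genes 19% and among cholesterol synthesis and efflux genes 3.12%, where 9.02% of all genes were. Of 37 fuel metabolism genes, 6 rose and 2 fell, with a median of -0.005; without vehicle replicate 1 or Dex replicate 3, 1 fell. Pfkfb3, which makes the activator of glycolysis fructose 2,6-bisphosphate, had 131, 122 and 118 CPM with Dex and 29.8, 40.0 and 40.9 CPM with vehicle (1.74 ± 0.13). Pnpla2, the triglyceride lipase ATGL, rose by 0.69 ± 0.09. Of 32 cholesterol synthesis and efflux genes 1 was called, Mylip, a ubiquitin ligase for the LDL receptor, which fell by 1.24 ± 0.12; fits without 1 library gave up to 2. Among 21 eicosanoid genes 2 rose and 2 fell, but 1 call in each direction was lost without vehicle replicate 1, without Dex replicate 1 and in other fits without 1 library. The calls that stayed were those of Ptger2, a receptor for prostaglandin E2, which rose by 1.09 ± 0.15, and Ptgir, the prostacyclin receptor, which fell by 0.79 ± 0.16.

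Several lists held 2 calls or fewer. None of 34 S phase and mitosis genes, 41 cytosolic ribosomal protein genes and 13 mitochondrial transcripts was called by edgeR or by DESeq2, with medians of 0.081, -0.148 and -0.035, and 1, 0 and 0 of them had an unadjusted edgeR p under 0.05. Of 45 interferon-stimulated genes 1 rose and 1 fell (4.44% called, where 9.02% of all genes were), the faller being Irf1, an interferon-induced transcription factor (-0.96 ± 0.14). Of 33 NRF2, redox and stress genes 1 rose and 1 fell (6.06%), but more of them had an unadjusted edgeR p under 0.05. That held for 12 of the 33, and for 2181 of all 11160 genes. The list's median was -0.141, with 12 of the 33 above 0. The faller was Nfe2l2, which encodes NRF2 itself, at 209.9, 203 and 210.1 CPM with Dex, against 302, 283 and 294 CPM with vehicle (-0.50 ± 0.06). In the Bcl2 family, where 2 of 17 were called (11.8%), Bmf, a promoter of apoptosis (1.72 ± 0.25), and Bcl2l1, the survival gene Bcl-xL (0.80 ± 0.10), both rose. In fits without 1 library the counts of called genes moved by at most 1.

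**Figure D3:**
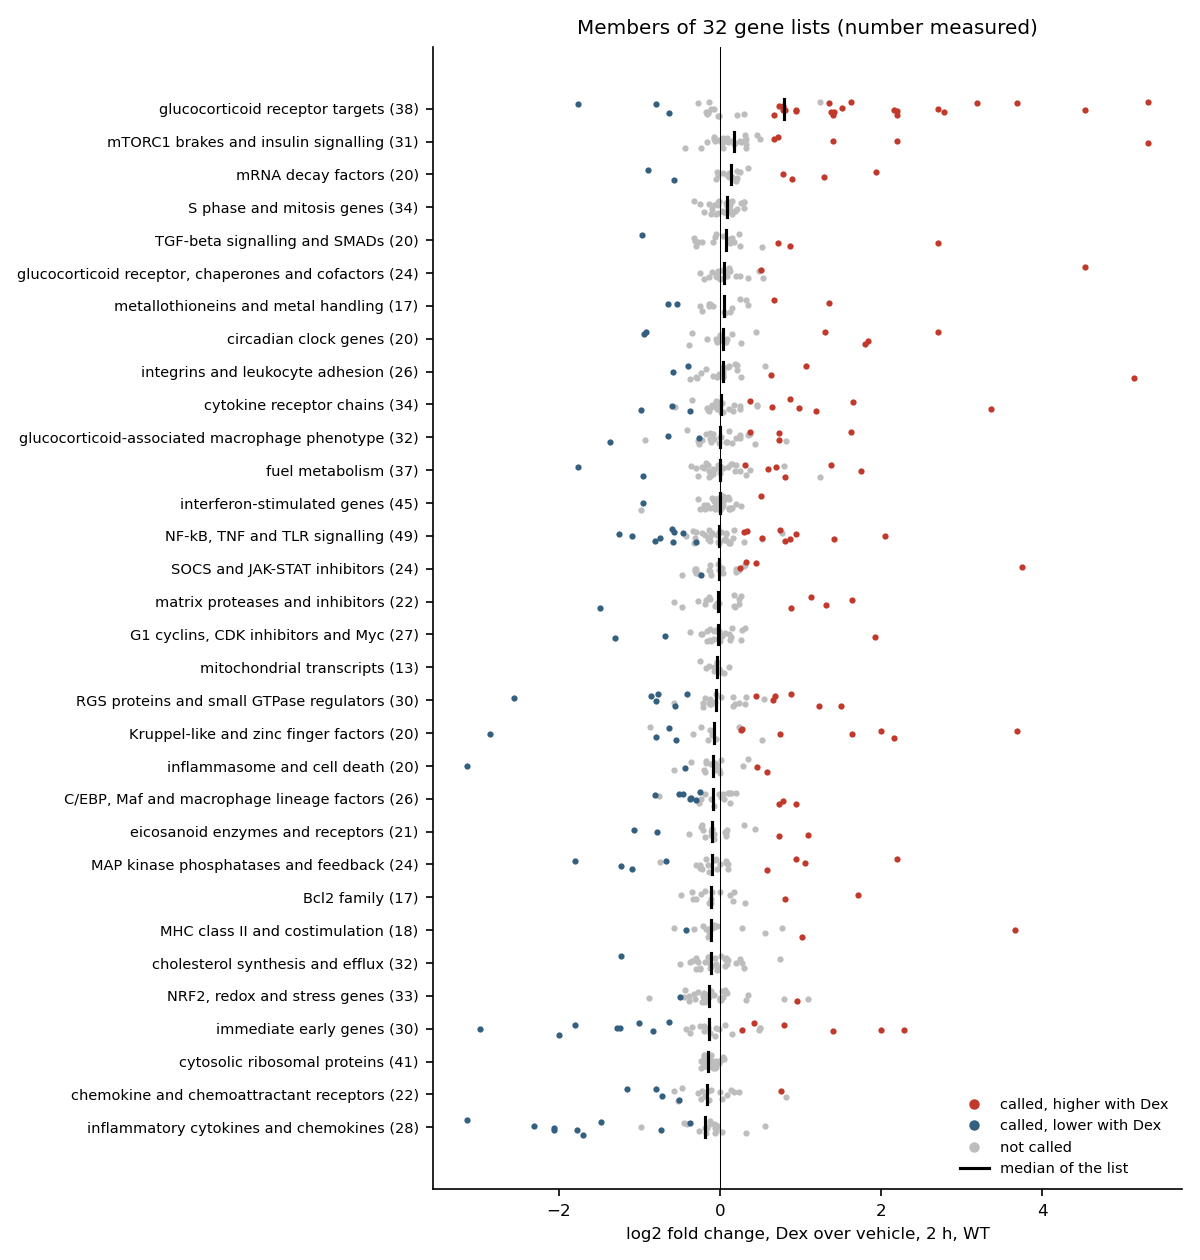
Each dot is a measured member of a gene list at its log2 fold change, Dex over vehicle, on the x axis; red and blue dots were called, grey dots were not, and the black bar is the list's median. The 32 lists run from the highest median, 0.79 for glucocorticoid receptor targets, to the lowest, -0.182 for inflammatory cytokines and chemokines, and most medians lie near 0.

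The cells carried macrophage markers in both groups. All 12 of the listed macrophage markers were measured, and their summed level was 19010 to 23690 CPM with Dex and 21840 to 22940 CPM with vehicle. Markers of T and NK cells (0 of 11) and of mast cells (0 of 8) were not among the genes measured. The summed levels of neutrophil markers (6 of 12 measured) were 149.5 to 221.6 CPM with Dex and 157.8 to 234.9 CPM with vehicle, and those of stromal markers (8 of 12) 5.354 to 14.81 and 6.172 to 14.12 CPM. B cell and dendritic cell markers (2 of 8 and 5 of 9 measured) summed to under 7 CPM in every library, megakaryocyte and erythroid markers (2 of 11) to 228.3 to 322.4 CPM with Dex and 277.4 to 397.2 CPM with vehicle, and osteoclast markers (5 of 9) to 406.5 to 528.5 and 352.3 to 494.3 CPM. No marker of a cell type other than macrophages was called, and without vehicle replicate 2, 1 osteoclast marker was. Of these markers 1, for osteoclasts, had an unadjusted edgeR p under 0.05.

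Some called genes adjoined another called gene on the chromosome. Of 11045 adjacent pairs of measured genes, 153 (1.39%) had both members called, 109 of them both up, 25 both down and 19 in opposite directions. Of single genes 9.02% were called, 5.85% up and 3.17% down, and the share of pairs that these rates alone would give was not computed. Some pairs overlap in position in RefSeq, Ccl3 with Ccl4 among them. Among pairs that rose are Amica1 with Mpzl3, a gene for a membrane protein of the myelin protein zero-like family (1.92 ± 0.23), and Tlr8 with Tlr7. Among pairs that fell are Ccl3 with Ccl4 and Ccl2 with Ccl7. Mpzl3 was named for its position after its values were seen, and no test of the pairing was made.

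How much of the 2 h response was still there later was asked with the 8 and 24 h libraries of WT cells, each set against its own vehicle libraries. Of the 653 genes called up at 2 h, 536 were also called up at 8 h and 436 at 24 h, which is 82.1 and 66.8% of the 2 h list and 24.3 and 18.8% of the lists of those times. Of the 354 called down, 222 were called down at 8 h and 170 at 24 h, or 62.7 and 48% of the 2 h list and 11.5 and 7.26% of the later lists. The later lists are longer: 19.8% of all genes were called up and 17.2% down at 8 h, and 20.7% up and 21% down at 24 h. The test of the difference in effect, 8 h minus 2 h, called 1980 genes (17.7%, edgeR quasi-likelihood). Of all genes 9.38% had a higher value at 8 h and 8.36% a lower one. Among the 653 risers 184 were higher at 8 h and 62 lower, and among the 354 fallers 71 were higher and 50 lower.

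The lead genes took different courses. Log2 fold changes at 2, 8 and 24 h were 4.53, 6.21 ± 0.35 and 5.83 ± 0.35 for Fkbp5, and 5.13, 9.45 ± 0.46 and 7.86 ± 0.39 for Amica1, both higher at 8 h than at 2 h by the test (adjusted p = 0.00424 and 0.000614 in edgeR). Zbtb16 and Fzd4 were higher at 8 h too, by 1.26 ± 0.34 and 1.25 ± 0.37. Icosl instead stood at 3.66, 2.93 ± 0.13 and 1.19 ± 0.13, lower at 8 h than at 2 h by the test (adjusted p = 0.00251 in edgeR). Among the falls, Tnf went deeper, with -2.06, -2.94 ± 0.22 and -2.74 ± 0.22, while Ier3 stood at -1.99, -0.55 ± 0.16 and 0.41 ± 0.15. The other 13 of these 20 lead genes did not pass the test of 8 against 2 h.

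**Figure D4:**
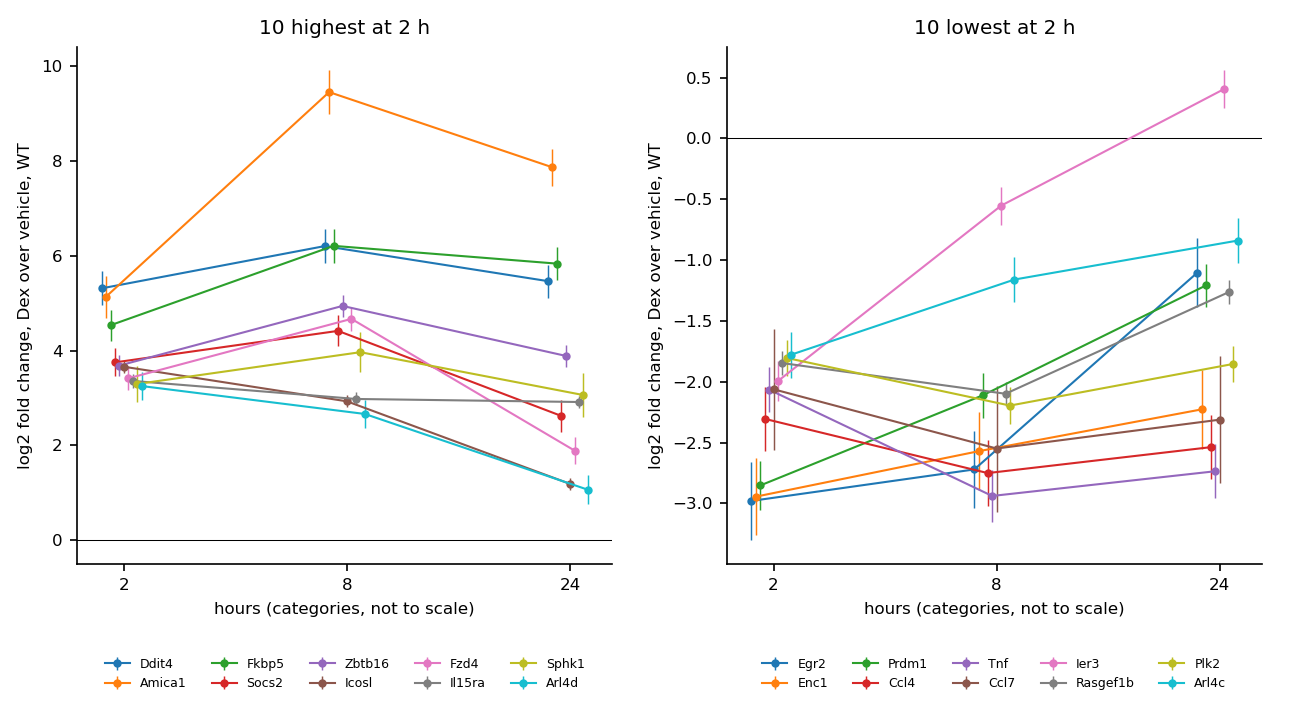
Log2 fold changes, Dex over vehicle in WT cells, with SE bars, at 2, 8 and 24 h (drawn as categories), for the 10 highest (left) and 10 lowest (right) genes at 2 h among those named by rule, which asks for at least 5 CPM in a group and no overlap. Amica1 and Fkbp5 are higher at 8 h than at 2 h, Icosl is lower at 8 h and at 24 h, and Ier3 ends above 0.

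A small set of genes was called in opposite directions at 2 h and 8 h, 14 that were up and 20 that were down at 2 h. Dusp6 stood at 1.05 ± 0.21 at 2 h and -0.65 ± 0.21 at 8 h, and Gpr183 at 0.76 ± 0.14 and -0.53 ± 0.14. Amd1, which encodes an enzyme of polyamine synthesis, stood at 0.95 ± 0.09 and -0.60 ± 0.09. In the other direction Bcl3 stood at -1.09 ± 0.12 and 0.58 ± 0.12, Btg1 at -0.57 ± 0.14 and 1.18 ± 0.14, and Mxd1, an antagonist of Myc, at -0.68 ± 0.13 and 0.58 ± 0.13. For Bcl3 this means 13.3, 13.8 and 11.7 CPM with Dex, against 33.3, 24.7 and 24.6 CPM with vehicle at 2 h, and the opposite order of the group means at 8 h.

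Whether loss of MS4A4A alters the early response was asked by setting Dex against vehicle at 2 h in KO cells beside the same contrast in WT cells, with separate libraries for each. Ms4a4a itself was not absent from the libraries labelled KO: at 2 h they held 70.5, 79.5 and 66.5 CPM with Dex and 30.8, 37.4 and 35.5 CPM with vehicle, against 104, 120.3 and 124 CPM and 79.2, 85.0 and 90.3 CPM in WT. KO values were below WT values under both treatments, and which part of the gene is missing in the KO is not given in the sources used here, so these counts check the labels only in part. In KO cells 643 genes were called up (5.76%) and 517 down (4.63%). Of the 653 WT risers, 466 were called up in KO (71.4% of the WT and 72.5% of the KO list) and 642 had a log2 fold change above 0. Of the 354 WT fallers, 240 were called down in KO (67.8 and 46.4%) and 345 were below 0. No gene was called in opposite directions. The test of the difference itself, KO minus WT, called 0 genes by edgeR quasi-likelihood and 0 by DESeq2, with 986 genes (8.84%) at an unadjusted p under 0.05. Without Dex KO replicate 3 it called 7 genes. Its median SE was 0.166 on the log2 scale, against 0.117 for Dex over vehicle in WT, and 0 calls do not show the responses to be equal.

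Among the lead genes the KO and WT values differed most at Enc1, with -2.18 ± 0.31 in KO and -2.95 ± 0.32 in WT (adjusted p of the difference = 0.558 in edgeR). Fkbp5 stood at 4.05 ± 0.32 in KO and 4.53 ± 0.33 in WT, Ddit4 at 5.17 ± 0.35 and 5.31 ± 0.36, Icosl at 3.65 ± 0.13 and 3.66 ± 0.13, Tnf at -2.37 ± 0.19 and -2.06 ± 0.19, and Egr2 at -3.44 ± 0.36 and -2.98 ± 0.32. The lowest unadjusted p of the difference among the 20 lead genes and Ms4a4a was 0.0284, at Rasgef1b (-2.16 ± 0.10 in KO and -1.85 ± 0.10 in WT; adjusted p = 0.544 in edgeR).

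**Figure D5:**
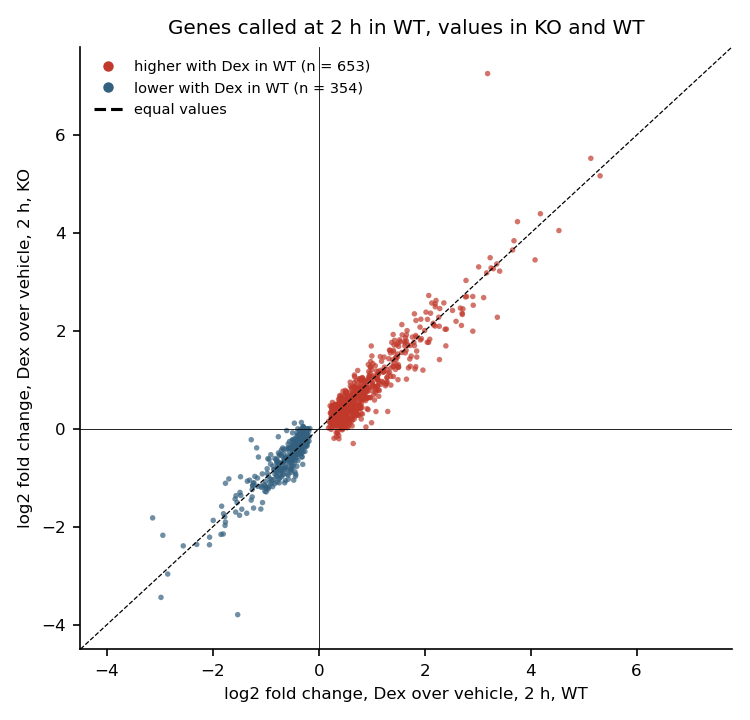
Each point is a gene called in WT at 2 h, with its log2 fold change, Dex over vehicle, in WT on the x axis and in KO on the y axis; the dashed line marks equal values. Of the 653 genes higher with Dex in WT, 642 lie above 0 in KO, and of the 354 lower ones 345 lie below 0; a gene at 0 in all 3 WT vehicle libraries was not drawn.

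Ms4a4a, which encodes a tetraspan membrane protein of macrophages, was not yet called in WT at 2 h. Its WT libraries with Dex were all above those with vehicle, as at 13.6% of all genes. Its log2 fold change was 0.45 ± 0.21 (adjusted p = 0.217 in edgeR). With the 6 libraries fitted alone it passed (adjusted p = 0.015, edgeR quasi-likelihood). In the libraries labelled KO the value at 2 h was 1.06 ± 0.21, and there it was called (adjusted p = 0.00048 in edgeR). The difference, KO minus WT, was 0.61 ± 0.30 and was not called (unadjusted p = 0.0486, adjusted p = 0.544 in edgeR). At 8 and 24 h in WT it was 3.11 ± 0.22 and 3.24 ± 0.22, and the difference of 2.66 ± 0.30 between 8 and 2 h was called. Its relatives Ms4a6b and Ms4a6c, similar copies on chromosome 19 between which reads could be split, did rise at 2 h, by 0.76 ± 0.16 and 0.53 ± 0.15, the call of Ms4a6c being lost without vehicle replicate 1 or Dex replicate 2.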

How the data were processed

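RNA-seq of bone marrow-derived macrophages was analysed from a table of 11160 genes in 42 libraries, with 0 columns left unused. The authors deposited estimated counts per gene, made, per the submitters' processing notes, with the tools fastp, HISAT2 and Salmon on the build GRCm38. The sources used here do not state the role of each tool, the strand setting or the rule by which genes were kept. Of the values, 69.55% lay within 0.01 of a whole number, and all were rounded to whole numbers before testing. The lowest gene total over the libraries was 256 counts, and edgeR's filter on low counts removed 0 genes.

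Groups were taken from the sample titles. The edgeR quasi-likelihood test (edgeR 4.0.16, R 4.3.3) was fitted with TMM scaling as a model of 14 group means over all 42 libraries, so that they share an estimate of the spread. Adjusted p-values are Benjamini-Hochberg over 11160 genes, called at 0.05, and the procedure was tested on simulated counts. Fold changes are Dex over vehicle. The SE of a log2 fold change is its absolute value divided by the square root of the test's F statistic. It is therefore approximate and was not taken from the fitted coefficients. The 2 h libraries held 22399842 to 33528397 counts, and counting error is only part of the error given by the SE. Replicate libraries of a group differed by more than sampling noise, and none was merged.

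Genes were named by a rule: the 15 highest and 15 lowest log2 fold changes among called genes with at least 5 CPM in a group, no overlap between libraries and a gene name, up to 4 members of each list with the lowest p, and a fixed set of glucocorticoid and macrophage genes. Amd1, Bcl6, Bhlhe40, Btg1, Cebpb, Dusp4, Fos, Il6ra, Junb, Klf10, Klf4, Maf, Map3k6, Mpzl3, Ms4a6b, Ms4a6c, Per2, Rgs2, Rptor, Tlr4, Tlr5, Tlr7, Tlr8, Zeb2 and Zfp36l1 fall outside it and were named after their values were seen. The comparison, the lists and the rule were chosen with earlier results of these data known. Lists were described by counts and medians, with no test of a list.

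Gene positions came from GENCODE M21, which gave 10745 symbols (96.3%) a single place, and promoters and neighbours from RefSeq GRCm38.p6. As alternatives, the test was DESeq2 (1.42.0), the scaling was by median ratios, the filter was omitted or set at a mean of 5 CPM or more, and the fit had a block for the replicate number, held only the compared libraries with or without that block, or left out each library in turn. Promoters were also searched in the 250 bases before the start alone.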

Additional observations from a re-analysis of the deposited data

Results flagged for a closer look

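The effect of Dex in WT cells differed between 8 h and 2 h at 1980 genes by the test of the difference itself (edgeR quasi-likelihood, Benjamini-Hochberg). Each time has its own vehicle libraries.

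Of the 20 lead genes and Ms4a4a, 8 passed this test. On the log2 scale the difference, 8 h minus 2 h, was 4.31 for Amica1, 2.66 for Ms4a4a, 1.67 for Fkbp5, 1.26 for Zbtb16 and 1.25 for Fzd4, all risers or, for Ms4a4a, uncalled at 2 h. It was -0.73 for Icosl, a riser with a smaller fold change at 8 h, and -0.87 for Tnf, which was lower at 8 h than at 2 h relative to vehicle. It was 1.44 for Ier3, whose fall was smaller at 8 h.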

How the results depend on the processing

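Of the 119 genes named in the text that were called, 113 kept their call in every fit without one library and 118 in the other alternatives, and no direction reversed. The exceptions stand beside the genes. DESeq2 called 1116 genes, 1006 of them among the 1007. Genes at a mean of at least 5 CPM gave 34 falls over 2-fold in place of 55, with 9425 genes tested. Fits without one of the compared libraries called 752 to 986 genes, 496 to 636 upward and 256 to 350 downward, and 204 to 235 over 2-fold, 157 to 185 upward and 45 to 53 downward, with fewer samples in each. KO minus WT gave 0 to 7 genes and 8 h minus 2 h 1600 to 1866. Whether the replicate numbers pair the libraries was not settled. Correlations of the deviations of same-numbered Dex and vehicle libraries were 0.53, 0.067 and 0.30. Those of differently numbered libraries ran from -0.52 to 0.34, and Dex replicate 3 correlated best with vehicle replicate 2 (0.34). The main model held no term for the replicate number. With the replicate block 1318 genes were called, 1007 of them the same, Nr3c1 passed (adjusted p = 0.0275, edgeR), Mrc1 passed with the block in the compared libraries alone (0.0183), and for 8 h minus 2 h the compared libraries alone with the replicate block gave 3027. The cause of these shifts was not tested. The 250-base window left the share of promoters with the palindrome at 1.32% among genes that rose over 2-fold. The median SE was 0.187 in the least abundant class, so precision was lowest there.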

Other observations

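Regulators of small GTPases were called in both directions, 6 up and 6 down of 30 measured (40%, where 9.02% of all genes were called). Rapgef2, an exchange factor for Rap1, stood at 62.9, 55.0 and 53.7 CPM with Dex, against 18.6, 23.5 and 18.8 CPM with vehicle (log2 1.49 ± 0.18). Its groups did not overlap, as at 24.2% of all genes.

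Of 22 matrix proteases and inhibitors 4 rose and 1 fell, the faller being Plau (22.7% called, where 9.02% of all genes were). The matrix metalloproteinase gene Mmp19 had 57.5, 49.7 and 41.7 CPM with Dex and 23.7, 23.9 and 20.8 CPM with vehicle (log2 1.12 ± 0.19), and Adamtsl4, of the ADAMTS-like family, rose by 1.64 ± 0.27. Gadd45a, a stress gene that restrains the cell cycle, fell to 38.2, 35.4 and 42.5 CPM with Dex, against 109, 74.1 and 104 CPM with vehicle (log2 -1.31 ± 0.18). Sh2b3, an adaptor that dampens cytokine receptor signalling, rose by 0.45 ± 0.08.

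A set of 11 unnamed loci, Gm10800 and its like, chosen after their values were seen, varied widely between replicates. Their summed level without TMM scaling was 1485, 155 and 31.4 CPM in the Dex libraries of WT cells at 2 h and 3622, 8.45 and 214 CPM in the vehicle libraries, and it reached 6055 CPM in Dex replicate 1 of WT cells at 24 h.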
